A study of Mus musculus with 23 samples.

Results

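The genes described here are Ppbp, Pf4, Alox12 and Atp2a3, 4 genes known from platelets, among 16593 genes with a probe on a mouse expression array. They were taken by their array annotation symbol, which gave 8 of the 25697 probes: 2 for Ppbp, 1 for Pf4, 2 for Alox12 and 3 for Atp2a3. They were chosen by their signals on these same arrays, which were lower in E12.5 embryos homozygous for an altered Meis1 allele than in the other embryos. Their genotype differences at E12.5 are therefore given as a description, without a test. Total RNA of C57BL/6J mouse brain was measured, 1 array per mouse. At E12.5 the labelled tissue was forebrain, from 5 homozygotes (3 males, 2 females), 6 heterozygotes (3 males, 3 females) and 5 wild types (3 males, 2 females). The adult tissue was labelled brain, from 4 heterozygotes and 3 wild types, all males of 23 weeks. The labels name Meis1 as the altered gene, and the title of the series refers to embryonic ganglionic eminences. The labels do not describe the alteration, or whether it was limited to some cells. No second agent or allele is named for any group.

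Platelets are shed by megakaryocytes, large blood-forming cells, and carry RNA and stored proteins into the circulation. Ppbp (Cxcl7) and Pf4 (Cxcl4) encode chemokines stored in platelet alpha granules and released on activation. Alox12 encodes the arachidonate 12-lipoxygenase of platelets, and Atp2a3 encodes SERCA3, a pump that returns calcium to the endoplasmic reticulum in platelets and other blood cells and also in cerebellar Purkinje neurons. Meis1, a homeobox transcription factor, is needed for the megakaryocyte lineage of the mouse embryo. Whole brain tissue holds blood within its vessels, and in such bulk samples fewer cells of a type and less RNA per cell cannot be told apart.

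Ppbp and Pf4 lie next to each other on chromosome 5, while Alox12 and Atp2a3 lie on chromosome 11, as does Meis1. The promoter windows of all 4 genes, 250 bases before to 50 after the annotated start, are shown because the genes were chosen as a group with low signals in homozygotes, and their promoters differ in composition. The sequences are from RefSeq (GRCm38.p6) and run 5′ to 3′ on the strand of the gene: Ppbp at chr5:90768268-90768567 (plus strand), Pf4 at chr5:90772185-90772484 (plus), Alox12 at chr11:70255321-70255620 (minus) and Atp2a3 at chr11:72960919-72961218 (plus). Capitals mark matches, on either strand, to TATAAA (the core of a TATA box), TGACA (a core bound by Meis-class homeodomains; TGACAG, one base longer, was searched too) and GATAA (a core bound by GATA factors).
Ppbp: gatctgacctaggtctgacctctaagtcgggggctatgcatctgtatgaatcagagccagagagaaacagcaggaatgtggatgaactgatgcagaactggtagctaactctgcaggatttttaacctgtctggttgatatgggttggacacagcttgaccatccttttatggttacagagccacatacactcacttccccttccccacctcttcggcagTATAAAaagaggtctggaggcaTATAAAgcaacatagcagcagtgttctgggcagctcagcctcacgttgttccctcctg
Pf4: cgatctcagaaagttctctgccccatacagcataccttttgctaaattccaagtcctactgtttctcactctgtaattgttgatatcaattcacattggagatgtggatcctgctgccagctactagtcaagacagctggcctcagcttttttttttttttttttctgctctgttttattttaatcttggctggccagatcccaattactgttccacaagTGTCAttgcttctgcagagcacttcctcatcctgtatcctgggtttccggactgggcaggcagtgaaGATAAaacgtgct
Alox12: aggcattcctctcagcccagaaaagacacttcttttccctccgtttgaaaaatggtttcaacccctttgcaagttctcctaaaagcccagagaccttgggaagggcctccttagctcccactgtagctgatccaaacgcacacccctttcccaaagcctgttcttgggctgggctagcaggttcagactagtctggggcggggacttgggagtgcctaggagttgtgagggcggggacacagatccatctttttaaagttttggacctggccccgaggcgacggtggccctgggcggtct
Atp2a3: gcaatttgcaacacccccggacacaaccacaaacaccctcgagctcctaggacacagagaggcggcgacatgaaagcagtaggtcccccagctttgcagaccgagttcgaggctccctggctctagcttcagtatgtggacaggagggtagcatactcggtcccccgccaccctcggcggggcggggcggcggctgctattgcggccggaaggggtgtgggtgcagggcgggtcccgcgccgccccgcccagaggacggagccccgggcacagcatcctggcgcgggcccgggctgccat
The Ppbp window held TATAAA at 2 places, starting 30 and 8 bases before the start site, a motif present in 13.6% of 32807 mouse promoter windows of this length. The Pf4 window held TGACA on the minus strand (printed as TGTCA), 30 bases before the start, and GATAA 37 bases after it, motifs found in 45.4% and 25.4% of windows. TGACAG, which contains TGACA, was in 19.2% of windows and in none of the 4 shown here, and the Alox12 and Atp2a3 windows held no match to any of the motifs. The Atp2a3 window was 68.3% G and C with 25 CpG dinucleotides, more than in 81.6% of windows. The Alox12 window had 8 CpG and the Ppbp and Pf4 windows 3 each, against a median of 7. A match here is a string of letters and not a tested site.

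Values below are log2 signals after background correction and quantile normalization, with the 16 embryonic and the 7 adult arrays treated apart. A probe counts as detected on an array where its detection p, set against negative control probes, is under 0.05. The dimmest detected probes lay between 5.21 and 5.37 on the embryonic arrays and between 4.78 and 4.87 on the adult arrays. Arrays detected 13446 to 14079 probes in embryos and 13645 to 14153 in adults, and the number of arrays limits the precision. Of the 8 probes of the 4 genes, 6 passed the filter for embryos (detected on at least 5 arrays), with at least 1 probe per gene. The second probe of Alox12 and the third of Atp2a3 were not detected on any of the 23 arrays. Meis1 itself, the check of the labels, averaged 8.80 ± 0.23 in homozygotes, 9.62 ± 0.14 in heterozygotes and 9.98 ± 0.17 in wild types (SD, n = 5, 6 and 5), and all homozygotes lay below all other embryos. Its difference was -1.22 ± 0.12 (SE; limma, adjusted p = 0.000287) between homozygotes and wild types and -0.40 ± 0.11 (adjusted p = 0.999) between heterozygotes and wild types. Where its probe lies relative to the alteration is not known.

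Ppbp was near background in every homozygote and well above it in every other embryo. By its brighter probe the 5 homozygotes read 4.49, 4.80, 4.91, 5.24 and 5.29, and the probe was detected on 1 of these arrays. The 6 heterozygotes ranged between 7.79 and 8.63 with a median of 8.20, and the 5 wild types read 6.52, 7.42, 8.09, 8.25 and 8.73. The homozygotes did not overlap with either group, whereas heterozygotes and wild types overlapped, with the wild type male of litter 509 at the bottom of its group. The log2 difference was -2.80 ± 0.23 (SE) between homozygotes and wild types, -3.24 ± 0.21 between homozygotes and heterozygotes, and 0.44 ± 0.22 between heterozygotes and wild types. With homozygotes at background on 4 of 5 arrays, the sizes of the homozygote differences depend on the processing: with signals raised to the dimmest detected one of each array they were -2.53 against wild types and -2.92 against heterozygotes, and without background correction -1.20 and -1.42. Without wild type male replicate 2, of litter 509, the heterozygote difference was 0.21.

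The second Ppbp probe showed the same order. It was not well above background in any homozygote (4.58 to 4.98), was detected on all 6 heterozygote arrays (6.79 to 8.10, median 7.61) and read 5.97, 6.74, 7.34, 7.73 and 7.99 in wild types. Relative to homozygotes, heterozygotes were at least 4.85-fold higher and wild types at least 3.68-fold higher. Such bounds set the group mean of the brighter group against, on each homozygote array, the dimmest detected signal or the probe's own signal where that is higher, with measured means of 4.75 in homozygotes, 7.55 in heterozygotes and 7.15 in wild types. Fitted with sex and litter after raising signals to that floor, the difference of homozygotes was -1.86 against wild types and -2.29 against heterozygotes. Over the other settings, single litters included, the log2 difference from wild types ranged between -3.04 and -0.86. That from heterozygotes ranged between -3.07 and -1.08 over other settings. The bounds given here and below therefore hold for this processing only. Over the 16 embryos the 2 probes had r = 0.987 (rho 0.953), a description of 2 probes for 1 transcript on the same arrays.

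Pf4, the neighbour of Ppbp, kept a signal that was detected in all homozygotes. They read 6.19, 6.55, 7.04, 7.46 and 7.53. Heterozygotes ranged between 7.98 and 9.09 with a median of 8.58, and wild types read 7.61, 7.69, 8.06, 8.18 and 8.80. The highest homozygote (7.53) lay just below the lowest wild type (7.61), so the groups were apart by a narrow margin. The difference was -1.09 ± 0.27 (SE) between homozygotes and wild types, -1.64 ± 0.24 between homozygotes and heterozygotes and 0.55 ± 0.25 between heterozygotes and wild types. The last was 0.32 without homozygote female replicate 1.

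Alox12, by its only detected probe, read lower in every homozygote than in any other embryo. It was detected in 4 of 5 homozygotes, which read 5.16, 5.76, 5.77, 5.87 and 6.08. Heterozygotes ranged between 7.09 and 7.73 with a median of 7.41, and wild types read 6.11, 6.76, 7.29, 7.32 and 7.75. Every homozygote was below every wild type, the closest pair being a homozygote at 6.08 and the wild type of litter 509 at 6.11. The difference was -1.35 ± 0.19 (SE) between homozygotes and wild types, -1.69 ± 0.17 between homozygotes and heterozygotes and 0.34 ± 0.18 between heterozygotes and wild types. The last was 0.19 without wild type male replicate 2. Without background correction the homozygote difference from wild types was -0.55 for Alox12 and -0.63 for Pf4, so the order of both genes by size is not settled.

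Atp2a3, the calcium pump gene, was dim in all embryos. Its first probe was not well above background in any homozygote (4.81, 4.84, 4.93, 5.04 and 5.06), was detected in all 6 heterozygotes (5.45 to 6.07, median 5.70) and in 2 of 5 wild types, which read 4.81, 5.08, 5.22, 5.70 and 5.91. Homozygotes and wild types overlapped, and only the heterozygotes stood clear of the homozygotes. Relative to homozygotes, heterozygotes were at least 1.39-fold higher by this probe. Measured means were 4.94 in homozygotes, 5.75 in heterozygotes and 5.34 in wild types. No bound is given for wild types, most of which were undetected themselves. The fitted difference between homozygotes and wild types was -0.40 ± 0.17 (SE), with both groups at background on most arrays.

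The second Atp2a3 probe was detected in 1 of 5 homozygotes (4.77 to 5.33), in all 6 heterozygotes (5.45 to 5.88, median 5.59) and in 2 of 5 wild types (4.82, 5.07, 5.24, 5.30 and 5.41). Its difference was -0.16 ± 0.14 (SE) between homozygotes and wild types, -0.64 ± 0.13 between homozygotes and heterozygotes and 0.48 ± 0.14 between heterozygotes and wild types. The homozygote difference from wild types ranged between -0.28 and -0.0051 with 1 embryo left out, and was -0.0051 without homozygote male replicate 2. Here every heterozygote exceeded every wild type, 5.45 against 5.41 at the closest. Both probes lay within about 1 log2 unit of the dimmest detected signals in every embryo.

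**Figure D1:**
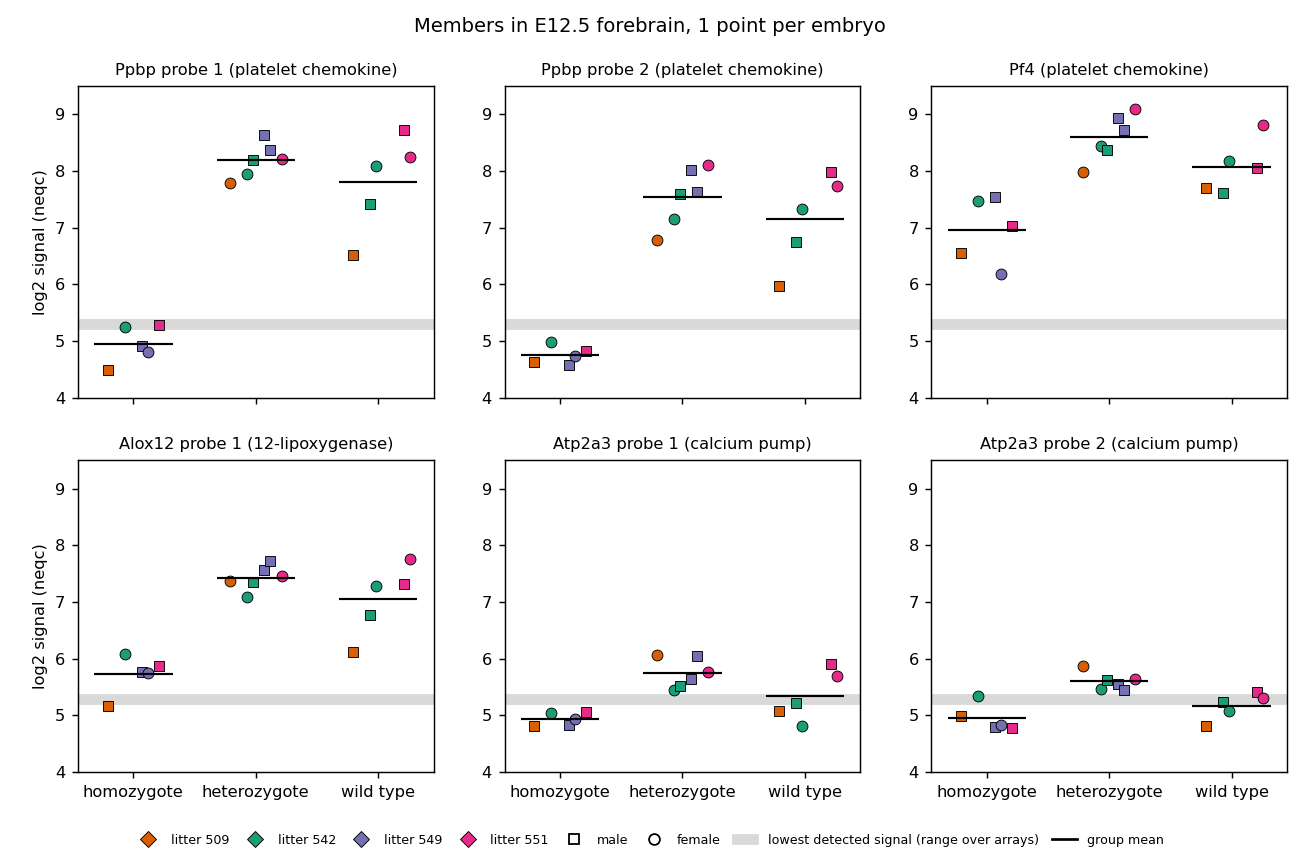
Log2 signal (vertical axis) of the 6 probes that passed the filter in each of the 16 embryos, by genotype. Colours mark litters, squares males, circles females, lines group means and the grey band the range over arrays of the dimmest detected signal. Ppbp sat at or below the band in the 5 homozygotes, between 4.49 and 5.29 by probe 1, and above it in all 11 other embryos.

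The intensities before any correction had the same order of genotypes. By its brighter probe, Ppbp averaged 159 ± 16 in homozygotes, 443 ± 116 in heterozygotes and 377 ± 152 in wild types (SD, n = 5, 6 and 5), in arbitrary units that include background. Pf4 averaged 266 ± 52 in homozygotes, 562 ± 224 in heterozygotes and 404 ± 132 in wild types. In the authors' processed table, which holds values below 0 for some probes, Ppbp averaged 10.8 ± 12.1 in homozygotes, 285 ± 63 in heterozygotes and 241 ± 128 in wild types.

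Read together, 6 of 6 probes had a negative difference between homozygotes and wild types, and in 4 of them, from Ppbp, Pf4 and Alox12, every homozygote was lower than every wild type. Of all 14340 probes kept, 0.551% were lower in every homozygote in that way. Against heterozygotes, every homozygote was lower in 6 of 6 probes (0.223% of all probes). Heterozygotes had the higher mean in 6 of 6 probes when set against wild types, and were apart from them in 1 (0.0558% of all probes). By limma, 0% of all probes passed between heterozygotes and wild types. The genes were chosen for the first of these patterns, and the 3 comparisons share their embryos, so nothing is read from these counts.

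**Figure D2:**
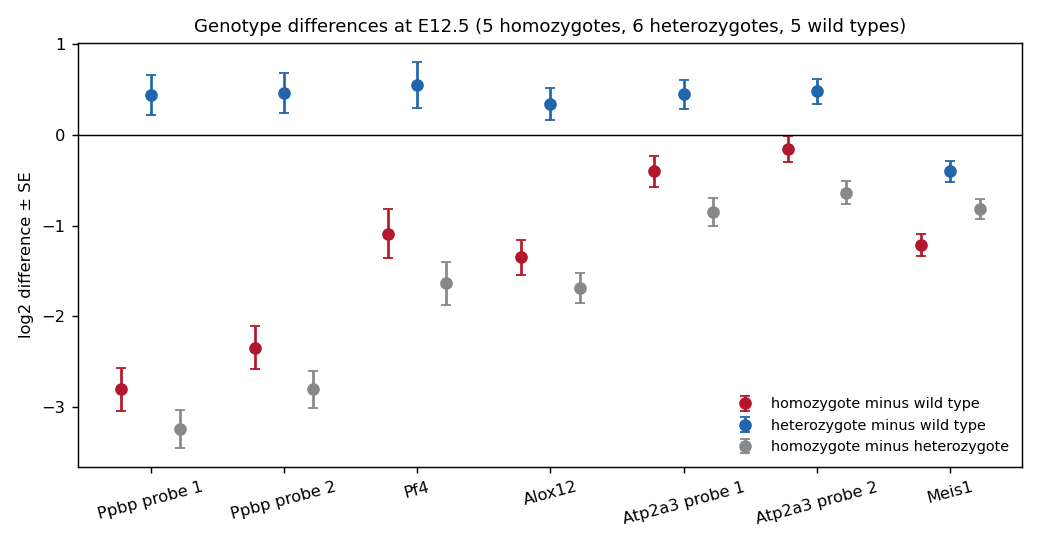
Log2 difference between genotypes at E12.5 (vertical axis) with its standard error for the 6 probes and for Meis1. The 4 genes had their lowest mean in homozygotes, although for Atp2a3 these overlapped with wild types. Heterozygotes had a mean slightly above wild type, with 0.34 to 0.55 for the brightest probe of each gene, whereas Meis1 was at -0.40.

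Within litters, read from the first part of the mouse number, the homozygotes were lower for Ppbp in all 3 litters that held both genotypes, with differences of -2.03 in litter 509, -2.51 in litter 542 and -3.20 in litter 551. The Pf4 differences were -1.14, -0.44 and -1.39 in these litters, and those of Alox12 were -0.95, -0.94 and -1.66. For the first probe of Atp2a3 they were -0.27, 0.03 and -0.74, and for the second probe 0.16, 0.18 and -0.58, so the sign was not the same in every litter and the second probe was higher in homozygotes in 2 of 3 litters. The higher mean of heterozygotes also varied: for Ppbp the heterozygotes differed from wild types by 1.27 in litter 509, 0.31 in litter 542 and -0.27 in litter 551. Litter 549 held 2 homozygotes and 2 heterozygotes and no wild type, and there Ppbp differed by -3.64 between homozygotes and heterozygotes.

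Signals also differed among litters. In the fit with genotype and sex, this held among the 4 litters for 3 of the 6 probes (limma, adjusted over all probes), where 34% of all probes did: adjusted p = 0.0194 and 0.0150 for the Ppbp probes and 0.0375 for Alox12. The adjusted p was 0.189 for Pf4 and 0.139 and 0.771 for the Atp2a3 probes. Litter 509 was lowest for Ppbp (-0.67 relative to the mean of the litters), for Pf4 (-0.43) and for Alox12 (-0.47), and litter 551 was highest at 0.49, 0.35 and 0.29. For Atp2a3, litter 542 was lowest at -0.23 and litter 551 highest at 0.26. Leaving out single embryos changed these calls. Without wild type male replicate 2, of litter 509, the adjusted p was 0.119 and 0.0795 for the Ppbp probes and 0.164 for Alox12. Without heterozygote female replicate 2, from the same litter, the second Ppbp probe had adjusted p = 0.0615. Alox12 lost its call in 8 of 16 such omissions, and Pf4 gained one without homozygote female replicate 1 (adjusted p = 0.00272).

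Between the sexes, no probe of the 4 genes passed the test (0 of 6, against 0.0697% of all probes; limma, adjusted p = 0.997 to 0.999). Female minus male, the difference was 0.0022 ± 0.18 (SE) for Ppbp, with a 95% interval of -0.39 to 0.39. It was 0.05 ± 0.21 for Pf4 (-0.39 to 0.49), 0.24 ± 0.15 for Alox12 (-0.07 to 0.55) and 0.01 ± 0.13 for Atp2a3 (-0.27 to 0.30). None of the 6 had an unadjusted limma p under 0.05, while 639 of all probes did. The sex-by-genotype term, female minus male in the homozygote difference, passed for 0 of 6 probes and for 0% of all probes (limma). At an unadjusted p under 0.05 there were 0 of the 6 probes and 435 of 14340. Its estimates were imprecise, as the -0.77 ± 0.50 (SE) of Pf4 and the 0.49 ± 0.33 of Atp2a3 show.

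The 4 genes were also set against each other across embryos. After genotype, sex and litter were taken out, Ppbp and Alox12 had r = 0.790 (rho 0.762) over 16 embryos, and Alox12 and Atp2a3 had r = 0.599. Ppbp and its neighbour Pf4 had r = 0.192, Pf4 and Alox12 0.353, and Pf4 and Atp2a3 -0.10. In the signals of the 11 heterozygotes and wild types alone, r was 0.887 between Ppbp and Alox12, 0.756 between Pf4 and Alox12 and 0.660 between Ppbp and Pf4. These values share arrays, litters and normalization and are descriptions.

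Among 9727 genes ranked by likeness over the 16 embryos, those nearest to Ppbp were Treml1, a platelet granule receptor (r = 0.968), Gp9, a subunit of the platelet glycoprotein Ib complex (0.944), and Mpig6b, an inhibitory receptor of megakaryocytes and platelets (0.907). Within the 11 heterozygotes and wild types these r were 0.780, 0.597 and 0.817. Alox12 was nearest to Mpig6b (0.972), Gp5, another member of that complex (0.931), and Treml1 (0.920), and for Mpig6b r was 0.947 in heterozygotes and wild types. Pf4 had other neighbours, Mrpl27 (0.863), Eci1 (0.860) and H4c12 (0.854). Atp2a3 was nearest to Gp5 (0.845), Polr3a (0.835) and Sys1 (0.764).

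With genotype, sex and litter taken out, the genes nearest to each of the 4 were largely others. They were Rab5if (0.937), Gmppb (0.924) and Cnn2 (0.902) for Ppbp, and Fau (0.986), Nans (0.986) and H2bc11 (0.972) for Pf4. For Alox12 they were Mpig6b (0.931), Ctsb (0.865) and Zfp36 (0.864), and for Atp2a3 they were Tbx2 (0.951), Plod2 (0.916) and Irak3 (0.900). Mpig6b for Alox12 was the one name that stood in both rankings. These are the highest of 9727 values for each gene, from residuals of 16 arrays.

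Other platelet genes were followed in lists. The lists were chosen with earlier results of these same arrays known, so their p-values and counts are not an independent test. Of 10 platelet surface receptors that passed the filter, out of 16 listed, 9 had a negative difference between homozygotes and wild types. Over all probes 49.4% did. At an unadjusted limma p under 0.05 there were 5 of the 10 and 1693 of 14340 probes. After adjustment 2 of the 10 passed as lower in homozygotes and 0 as higher. Of all probes, 0.0418% passed the test as lower and 0.00697% as higher. Treml1 and Gp9 were each detected in 1 of 5 homozygotes and in all other embryos, so most homozygote values below are not well above background. Both passed the filter through the other embryos, in which they were higher, so their calls are not independent of the filter either. Treml1 averaged 5.05 ± 0.39 in homozygotes and 7.28 ± 0.55 in wild types (SD, n = 5 each), a difference of -2.18 ± 0.25 (limma, adjusted p = 0.00166). Gp9 averaged 5.13 ± 0.15 in homozygotes and 6.44 ± 0.27 in wild types, a difference of -1.37 ± 0.19 (adjusted p = 0.00856). The list median was -0.49, against 0.0030 over all probes. Without homozygote male replicate 2, of litter 551, 1 of the 10 passed. None passed without background correction or among males alone, and 1 passed with no filter on dim probes.

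Relative to heterozygotes, 10 of the 10 receptors had a negative difference in homozygotes, as did 46.2% of all probes. At an unadjusted limma p under 0.05 there were 9 of the 10 and 1195 of 14340 probes. After adjustment 0 passed as higher and 4 as lower (0.0697% of all probes passed in this direction). The 4 that passed were Treml1 (-2.31 ± 0.23, adjusted p = 0.000191), Gp9 (-1.60 ± 0.17, adjusted p = 0.000298), Gp5 (at least 1.84-fold higher in heterozygotes, adjusted p = 0.0108) and Mpig6b (-1.03 ± 0.16, adjusted p = 0.0243). The list median was -0.71, against 0.01 over all probes. As the list was chosen with earlier results known, these p-values are not an independent test either. Treml1, Gp9 and Gp5 also passed the filter through heterozygotes and wild types, the groups in which they were higher. Gp5 was not well above background in any homozygote, with measured means of 4.94 in homozygotes and 6.15 in heterozygotes, whereas Mpig6b was detected in all embryos. The count that passed was 1 among males alone and 2 without background correction, filter or litter term. It was also 2 without heterozygote male replicate 2, heterozygote female replicate 2, homozygote female replicate 1 or homozygote male replicate 2. The other receptors named for their bright signal did not pass, and many cell types besides platelets express them: Cd9, a tetraspanin, averaged 8.88 ± 0.25 in homozygotes, 9.28 ± 0.19 in heterozygotes and 9.25 ± 0.33 in wild types. P2ry1, an ADP receptor, averaged 6.70 ± 0.21 in homozygotes, 6.90 ± 0.09 in heterozygotes and 6.54 ± 0.29 in wild types.

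The granule and cytoskeleton genes of platelets gave no call. Of 8 that passed the filter, 0 passed the limma test against wild types (4 at an unadjusted p under 0.05) and 0 against heterozygotes (3 unadjusted), with medians of 0.17 and 0.0088. The brightest were Sparc (12.16 ± 0.23 in homozygotes, 11.84 ± 0.25 in wild types; SD, n = 5 each), Timp3 (8.50 ± 0.27 in homozygotes, 8.34 ± 0.23 in wild types) and F13a1 (8.31 ± 0.29 in homozygotes, 8.12 ± 0.09 in wild types), genes that connective tissue cells or macrophages also express. Of the 8, 5 were higher and 3 lower in homozygotes than in wild types, and 4 were higher and 4 lower than in heterozygotes. Between homozygotes and wild types, Thbs1 differed by 0.85 ± 0.20 (SE) and Vwf by 0.39 ± 0.14 (limma, adjusted p = 0.341 and 0.381). Tubb1, the beta tubulin of platelets and the dimmest of the 8, differed there by -0.35 ± 0.21 (adjusted p = 0.486). Clec1b differed there by -0.27 ± 0.11 and Fermt3 by -0.05 ± 0.21 (limma, adjusted p = 0.407 and 0.934). Between homozygotes and heterozygotes Tubb1 differed by -0.59 ± 0.18 (limma, adjusted p = 0.599). In that comparison Fermt3 differed by -0.62 ± 0.19, Clec1b by -0.44 ± 0.10 and Vwf by -0.03 ± 0.13 (limma, adjusted p = 0.599, 0.342 and 0.956).

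Transcription factors of megakaryocytes and red cells also gave 0 of 8 calls in either comparison (limma; 0 unadjusted), with medians of -0.04 against wild types and -0.10 against heterozygotes. Zfpm1 (Fog1), a GATA1 partner, averaged 9.88 ± 0.21 in homozygotes and 9.60 ± 0.25 in wild types (SD, n = 5 each). Lmo2 averaged 10.72 ± 0.27 in homozygotes and 10.77 ± 0.22 in wild types, and Mafg 9.83 ± 0.16 in homozygotes and 9.94 ± 0.25 in wild types. Several of these factors work in red cell precursors as well.

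The chemokines had few measurable relatives. Of 21 CXC chemokines and receptors, 5 passed the filter and 0 passed the limma test against wild types (1 unadjusted) or heterozygotes (0 unadjusted), with medians of 0.10 against wild types and 0.08 against heterozygotes. Cxcl12 averaged 11.51 ± 0.40 in homozygotes and 11.33 ± 0.35 in wild types, and Cxcr4, its receptor, 9.52 ± 0.26 in homozygotes and 9.30 ± 0.29 in wild types (SD, n = 5 each). Cxcl14 averaged 8.87 ± 0.30 in homozygotes and 8.92 ± 0.53 in wild types. Around Ppbp and Pf4 on chromosome 5, the chemokine genes Cxcl5, Cxcl3, Cxcl15, Cxcl1 and Cxcl2 were detected in 0 of 16 embryos.

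The enzymes of arachidonate metabolism gave 0 calls of 7 (limma; 2 unadjusted in each comparison) and the calcium pumps and store genes 0 of 12 (1 unadjusted against wild types, 0 against heterozygotes). Their medians against wild types were -0.13 for the enzymes and 0.06 for the calcium genes, and against heterozygotes both were -0.05. Alox5ap, which presents arachidonate to 5-lipoxygenase, averaged 6.53 ± 0.25 in homozygotes and 7.04 ± 0.24 in wild types, and Ptgis, prostacyclin synthase, 8.31 ± 0.10 in homozygotes and 8.34 ± 0.31 in wild types (SD, n = 5 each). Hpgds, a prostaglandin D synthase, averaged 6.24 ± 0.32 in homozygotes and 6.37 ± 0.16 in wild types. Atp2a2, the widely expressed SERCA2 pump, averaged 10.95 ± 0.14 in homozygotes and 10.90 ± 0.12 in wild types. Calr, a calcium store protein, averaged 12.14 ± 0.28 in homozygotes and 11.79 ± 0.31 in wild types, and Orai1, a calcium entry channel, 8.01 ± 0.27 in homozygotes and 8.23 ± 0.23 in wild types.

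On chromosome 11, 7 of the 10 genes nearest to Alox12 passed the filter and 0 passed the test, with homozygote differences between -0.41 and 0.17. Its lipoxygenase neighbours Alox12e and Alox15 were not detected in any embryo. Around Atp2a3, 6 of 10 genes passed and 0 were called, with differences between -0.03 and 0.26. P2rx1, the platelet ATP receptor gene beside Atp2a3, was detected in 1 of 16 embryos.

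**Figure D3:**
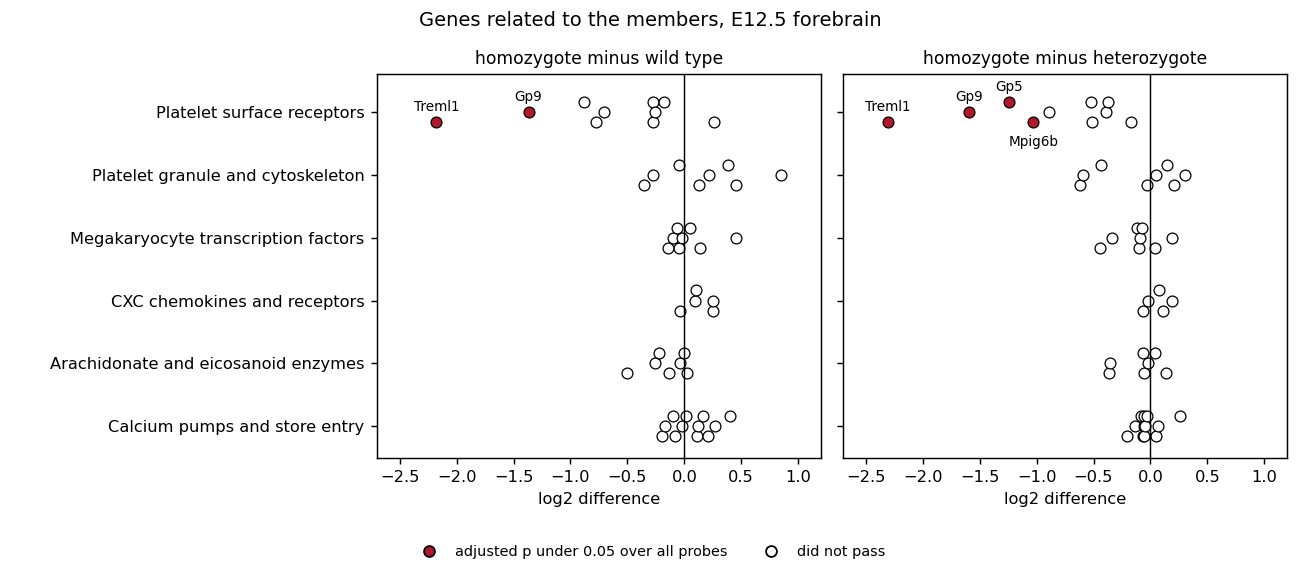
Log2 difference (horizontal axis) of each gene in 6 lists that passed the filter, homozygote minus wild type on the left and homozygote minus heterozygote on the right. Red points passed the limma test over all probes, which is not independent of how the lists were chosen. All red points are platelet surface receptors, 2 on the left and 4 on the right.

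Markers of other blood cells were read beside these results. All 8 red cell markers with a probe were detected in every embryo, and their summed linear signal was 91311 to 114068 in homozygotes, 100397 to 118017 in heterozygotes and 93838 to 110969 in wild types. This sum was mostly globin signal near the top of the scale (Hba-a1 read 14.75 to 14.91), so it is a coarse measure. Over all embryos Alas2 read 9.85 to 11.59, Slc4a1 10.75 to 12.46, Klf1 5.29 to 8.47 and Epor 5.52 to 7.11. For each of these the genotypes overlapped. Macrophage markers summed to 1243 to 1776 in homozygotes, 1821 to 2089 in heterozygotes and 1601 to 1959 in wild types, with all 9 detected in at least 1 array of each group. Neutrophil and mast cell markers summed to 454 to 676 in homozygotes, 677 to 1144 in heterozygotes and 550 to 854 in wild types, and of their 10 probes Ngp and Mcpt4 were undetected in all 3 groups. The lymphocyte markers Cd3e, Cd3d, Cd79a and Ptprc were undetected in all embryos, and endothelial markers summed to 4708 to 6096 in homozygotes, 5362 to 6000.0 in heterozygotes and 5065 to 6780.0 in wild types. The macrophage sums and the neutrophil and mast cell sums of homozygotes lay below those of heterozygotes and overlapped with those of wild types. Their part in the platelet result was not tested. Of the 9 forebrain markers with a probe, Pax6 and Gsx2 were not detected in any embryo.

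In adult brain the platelet chemokines and the lipoxygenase were at or near background in both genotypes, and the calcium pump was not. The adult filter kept 4 of 8 probes, from Ppbp, Pf4 and Atp2a3. Between heterozygotes and wild types, 0 of 4 passed the limma test (1 unadjusted, Ppbp), as did 0% of 14266 probes (1518 unadjusted). Meis1 averaged 7.56 ± 0.34 in heterozygotes and 8.17 ± 0.32 in wild types (SD, n = 4 and 3), a difference of -0.62 ± 0.19 that did not pass either (limma, adjusted p = 0.387).

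Ppbp, by its brighter probe, read 4.57, 4.64, 4.67 and 4.74 in adult heterozygotes and was not well above background in any of them. Wild types read 5.14, 5.16 and 5.18 and were detected in 3 of 3. The groups did not overlap, as was the case in the lower direction for 5.02% of all probes, and wild types were at least 1.25-fold higher (measured difference -0.50 ± 0.09, SE; limma, adjusted p = 0.295). The probe passed the adult filter, detection on at least 3 arrays, only through the wild types, the group in which it was higher. Its test and its lack of overlap are therefore not independent of the filter. The second probe was undetected on all 7 arrays, so this difference stands on 1 probe next to background.

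Pf4 read 4.84, 4.86, 4.89 and 4.93 in adult heterozygotes, detected in 3 of 4, and 4.88, 5.04 and 5.55 in wild types. The groups overlapped, with a difference of -0.28 ± 0.14 (SE; limma, adjusted p = 0.486) that was -0.08 without wild type replicate 1, the highest value. Alox12 was detected in 1 of 4 heterozygotes (4.68 to 5.11) and in 1 of 3 wild types (4.69 to 4.88) and was not tested.

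Atp2a3 was bright in the adult. Its first probe read 8.03, 9.005, 9.05 and 9.07 in heterozygotes and 8.72, 8.95 and 9.01 in wild types, with a difference of -0.11 ± 0.22 (SE; limma, adjusted p = 0.869). The second probe read 7.04, 8.01, 8.20 and 8.34 in heterozygotes and 7.997, 8.12 and 8.27 in wild types, a difference of -0.23 ± 0.25 (adjusted p = 0.736). Heterozygote replicate 4 was the low value by both probes, and without it the differences were 0.15 and 0.05.

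The same mouse was low in Purkinje cell markers. Pcp2, a Purkinje cell protein, read 8.59 in heterozygote replicate 4, 10.10 to 10.52 in the other heterozygotes and 10.15 to 10.42 in wild types. Pvalb, a calcium-binding protein of Purkinje cells and interneurons, read 11.67 in that mouse, 12.15 to 12.19 in the other heterozygotes and 12.07 to 12.31 in wild types. The third marker with a probe, Calb1, was undetected on all adult arrays, and the summed signal of the 3 was 3663 to 6171 in heterozygotes and 5501 to 6475 in wild types. Meis1 was also lowest in this mouse, at 7.05. None of the 3 markers was detected in any embryo. The part of Purkinje cell content in the Atp2a3 value was not tested.

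**Figure D4:**
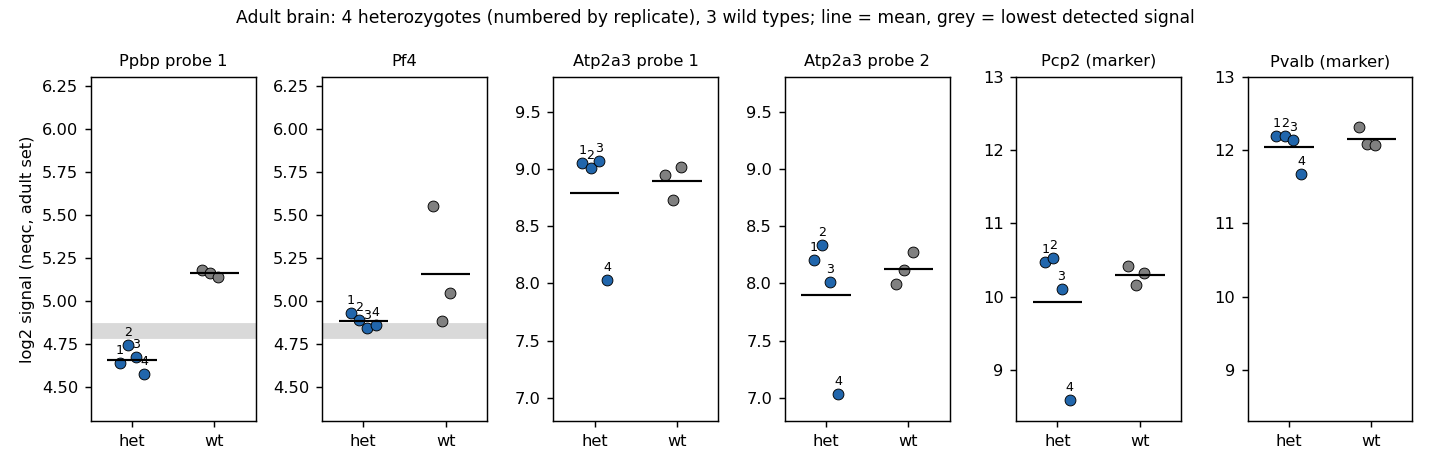
Log2 signal (vertical axes, which differ in range between panels) in 4 adult heterozygotes, numbered by replicate, and 3 wild types for 4 probes and 2 Purkinje markers. Lines are group means and the grey band is the range of the dimmest detected signal. Heterozygote replicate 4 was the lowest in both Atp2a3 panels, at 8.03 and 7.04, and in Pcp2 at 8.59.

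No list of related genes gave a call in adults (limma). Of the platelet surface receptors, 8 passed the adult filter and 0 passed the test (0 unadjusted), with a median of -0.10 (0.0053 over all probes), and the granule and cytoskeleton genes gave 0 of 8 (3 unadjusted) with a median of -0.0086. The calcium genes gave 0 of 17 (2 unadjusted), the arachidonate enzymes 0 of 10, the transcription factors 0 of 5 (0 unadjusted for both) and the CXC genes 0 of 4 (1 unadjusted).

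The stages were compared in wild types after all 23 arrays had been normalized together, and the 4 genes went in opposite directions. Adult brain was lower than E12.5 forebrain for Ppbp, Pf4 and Alox12 and far higher for Atp2a3, and all 6 probes passed the test, as did 73.6% of 16352 probes (40.2% lower and 33.4% higher in the adult). The E12.5 wild types also took part in the choice of the 4 genes, so these tests are not independent of that choice. The second Ppbp probe was detected on 0 of 7 adult arrays and Alox12 on 2. Both passed the joint filter only through the embryos, the stage in which they were higher. Dissection and sample set differ between the stages as well, and these cannot be told apart from age. Sex balance differs too, and sex and embryonic litter were terms of the fit. The fitted differences thus refer to males, whereas the means beside them are of all wild types of a stage.

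On the joint scale, Ppbp averaged 5.59 ± 0.03 in the adult and 7.56 ± 0.83 at E12.5 (SD, n = 3 and 5), a difference of -1.90 ± 0.22 (SE; limma, adjusted p = 8.43e-08). By its second probe, undetected in adult wild types, it was at least 3.58-fold higher at E12.5 (means 4.81 in the adult and 6.93 at E12.5; adjusted p = 4.47e-08). Pf4 averaged 5.58 ± 0.46 in the adult and 7.82 ± 0.47 at E12.5, a difference of -2.18 ± 0.27 (adjusted p = 2.38e-07). Alox12 averaged 5.07 ± 0.13 in the adult and 6.83 ± 0.60 at E12.5, a difference of -1.66 ± 0.19 (adjusted p = 9.73e-08). It was detected in 1 of 3 adult wild types, and with signals raised to the dimmest detected one the difference was -1.60. Without background correction these differences were smaller, at -0.86 for Ppbp, -0.96 for Pf4 and -0.57 for Alox12.

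Atp2a3 averaged 9.85 ± 0.15 in the adult and 5.22 ± 0.42 at E12.5 by its first probe, a log2 difference of 4.64 ± 0.22 (limma, adjusted p = 3.38e-14). By the second probe it averaged 9.06 ± 0.15 in the adult and 5.06 ± 0.21 at E12.5, a difference of 4.07 ± 0.23 (adjusted p = 9.34e-13). Each probe was detected in 3 of 3 adults and in 2 of 5 embryos, and with signals raised to the dimmest detected one the differences were 4.47 and 3.87. The median over all probes was -0.12, so the directions hold relative to it. Without background correction the log2 difference was 2.63 for the first probe and 2.03 for the second.

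**Figure D5:**
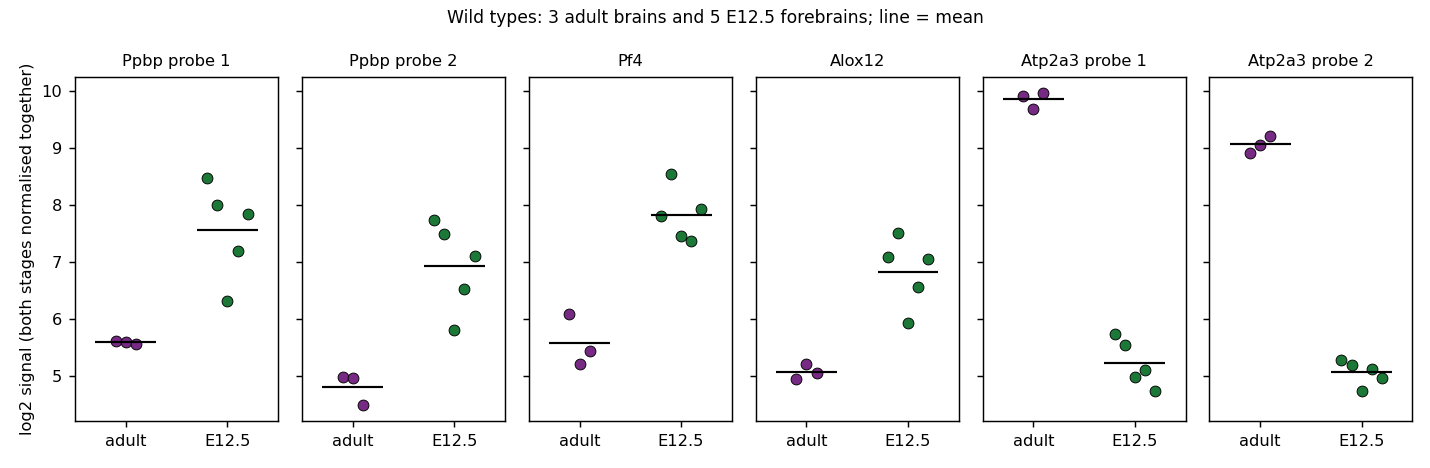
Log2 signal on the joint scale (vertical axis) of the 6 probes in 3 adult brains and 5 E12.5 forebrains of wild types, with lines at the means. Atp2a3 averaged 9.85 and 9.06 in the adult, against 5.22 and 5.06 at E12.5, and the other genes were lower in the adult.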

How the data were processed

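Total RNA of 16 embryonic and 7 adult samples was measured on Illumina arrays. One deposited table holds, per the file headers, a linear intensity per probe and array and a detection p-value, without normalization; per the submitters' processing notes, arrays were read with GenomeStudio 2011.1. A second deposited table holds the authors' processed intensity, with values below 0, and was used only as an alternative. How it was scaled is not stated; column medians were 31.1 to 31.3 in embryos and 16.2 to 16.3 in adults, so the stages were scaled apart. All 23 of its columns matched their own array, and no 2 arrays were identical.

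Signals were corrected with neqc (limma 3.58.1, R 4.3.3; noise from detection p-values, offset 16) and quantile normalized on the log2 scale, for embryos, adults and the joint set apart. Probes detected (p under 0.05) on at least 5 embryonic, 3 adult or 3 joint arrays were kept. Linear models (lmFit, eBayes, two-sided) had genotype, sex and litter as terms in embryos and genotype in adults, with Benjamini-Hochberg adjustment over all probes kept and a threshold of 0.05. Litters are a reading of mouse numbers, since the labels name none. Errors beside differences are standard errors. P-values set a fitted difference against the spread between these mice that the terms of the fit leave, moderated over all probes. Each gene of a list was read by its brightest probe.

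The 4 genes and the lists were chosen with earlier results of these data known. Named were every probe of the 4 genes, Meis1 and the 3 brightest genes of each list. Each list gene past the threshold in an E12.5 homozygote or adult comparison was named too. So were the 3 genes most like each of the 4, over signals and over residuals. Tubb1, Thbs1, Vwf, Clec1b, Fermt3, P2rx1, the single red cell markers and the gene neighbours were added after their values were seen. The fits were tested on simulated data. Files name no genome build.

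Replicate numbers of the labels showed no steady pairing of samples. Deviations of same-numbered embryos correlated between -0.53 and 0.73 (36 pairs, mean 0.16, 20 of them over 0.1). Those of adults correlated between -0.09 and 0.13 (3 pairs, mean 0.03). In embryos the numbers partly follow the litters, so a pairing was not excluded.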

Additional observations from a re-analysis of the deposited data

Results flagged for a closer look

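Of 22 groups of 4 to 6 arrays screened for 1 array far from the others, 1 stood out, about what chance gives (1 in 20). The first Atp2a3 probe read 8.03 in adult heterozygote replicate 4, where the nearest of the other heterozygotes read 9.005, a gap of 0.940 of the group's range (critical value 0.829 for 4 arrays).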

How the results depend on the processing

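Without background correction, the homozygote minus wild type difference was -1.20 for Ppbp, -0.63 for Pf4, -0.55 for Alox12 and -0.11 for Atp2a3 (first probes), and 3 probes were called in all, against 7. No filter on dim probes gave 4 and males alone (3 against 3) 0. For homozygotes against heterozygotes, 10 probes were called, 6 without the filter, 1 with males alone and 6 to 14 with 1 array left out. Within litters, Ppbp was at -2.03 in litter 509, Pf4 at -0.44 in litter 542, and Atp2a3 at 0.026 in litter 542 and -0.74 in litter 551. Female minus male changed sign for Ppbp without background correction (-0.011) and for Atp2a3 without the litter term (-0.012), and 5 probes were called without that term, against 10. Leaving out 1 array gave 5 to 10 sex calls, and differences of -0.11 to 0.12 and -0.12 to 0.16 for the Ppbp probes, -0.066 to 0.46 for Pf4 and -0.10 to 0.090 for Atp2a3. The sex-by-genotype term then ranged over -0.83 to 0.15 and -0.55 to 0.27 for Ppbp, -1.77 to 0.17 for Pf4 and -0.63 to 0.030 for Alox12. In adults, 1 probe was called without heterozygote replicate 2 (0 to 1 with 1 array left out), and the Atp2a3 probes ranged over -0.20 to 0.15 and -0.38 to 0.052. The litter call was also lost for Alox12 without background correction (adjusted p = 0.0883) or without the filter (0.0747), and for Ppbp probe 1 with the authors' processed values (0.0980) or with signals raised to the dimmest detected one (0.0822). The cause of these changes was not tested.

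With the replicate number as a block in place of litter, Ppbp differed by -2.85 between homozygotes and wild types, and 5 probes were called. Female minus male then turned to -0.0056 for Ppbp and -0.070 for Atp2a3, with 6 calls. In adults the block gave 0.15 and 0.052 for the Atp2a3 probes, as replicate 4 has no partner and drops out of the comparison. The numbers showed no steady pairing of the samples, and no other call of the 4 genes changed. The authors' processed values were not run between stages, which they scale apart. Every other setting kept the directions of the homozygote differences of Ppbp, Pf4 and Alox12. Atp2a3 was not above background on most homozygote and wild type embryonic arrays, nor was Ppbp in adult heterozygotes.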
